A study of Macaca fascicularis with 8 samples.

Results

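The regions described here were accessible in the heart and the uterus of a cynomolgus monkey and had no peak in colon, kidney, spleen or the liver of a male, while a lung peak was allowed. They were chosen by the peak lists of single-cell chromatin accessibility libraries (scATAC-seq), in which a transposase cuts DNA where chromatin is accessible and a barcode marks all fragments of 1 droplet. The peaks of colon, heart, kidney, male liver, lung, spleen and uterus were merged wherever they overlapped by at least 1 bp, which gave 245443 regions. A region was kept when it had a heart and a uterus peak and no peak in colon, kidney, male liver or spleen. This left 658 heart-and-uterus regions, 0.268% of all merged regions. Of these, 493 had no lung peak (0.201% of all regions) and 165 had one (0.0672%). These counts follow from the rule and carry no test.

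The series held 8 libraries from normal organs of adult cynomolgus monkeys, with 1 library for each organ and 2 for liver. Heart, uterus, lung, colon and 1 liver library (female liver) were labelled female, and kidney, spleen and the other liver library (male liver) were labelled male. Each sex was 1 animal, and the labels give no treatment. Heart and uterus, which had to have a peak, and lung, which could have one, were thus all female, and 3 of the 4 organs that had to lack a peak were male. The effects of organ, sex and single library cannot be told apart. The female liver was the only library that the rule did not use.

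Accessible regions away from gene starts are largely enhancers, and these are used by some cell types and not by others. The wall of the heart and the wall of the uterus both consist mainly of muscle, cardiac in one organ and smooth in the other. Both are also rich in fibroblasts, endothelial cells that line vessels, mural cells around vessels and resident immune cells. A region listed in both organs can therefore belong to a cell type that both organs hold or to different cell types in each. No gene is assigned to a region here, since the genome build of the peaks could not be settled. The study names macFas6 with an Ensembl annotation for its RNA data and no build for these libraries, and that genome was not used here. The RefSeq gene table of assembly T2T-MFA8v1.1 did not match the peaks. With that table, 9.61% of 14625 regions with a peak in all 7 organs (the widest left out) lay within 1 kb of a gene end, and 9.75% did after a shift of 50000 bp. Positions below are those of the deposited peaks.

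The heart library kept 5220 barcodes with at least 1000 counts in peaks and 52904154 counts, the uterus library 5770 barcodes and 41721017 counts, and the lung library 13117 barcodes and 102697781 counts. Heart and uterus shared 59 barcodes, which was 1.04% of the smaller library, while pairs of libraries shared between 17 and 379. The uterus had the shortest peak list (37159 peaks) and the heart the next shortest (68713), against 83244 to 110993 in the other merged libraries. Each matrix counts cut ends only in the peaks of its own library. An organ without a peak thus has no count at these regions, and a missing peak does not show that the region was closed.

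How often the uterus shared a region with a single other organ differed between organs. The heart shared 493 regions with the uterus alone. Kidney shared 686, colon 483, lung 239, male liver 163 and spleen 133. Kidney thus gave more such regions than heart by number. Per 1000 regions of the partner organ, the order changed, with 7.57 for heart, 6.75 for kidney, 4.63 for colon, 3.03 for lung, 1.57 for spleen and 1.53 for male liver. This rate depends on the length of each list, with 65120 regions in heart and 101657 in kidney. The order was not computed with lists of equal length. Most regions with both peaks were shared far more widely. Of 26383 regions with a heart and a uterus peak, 20204 had a peak in all 7 organs.

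**Figure D1:**
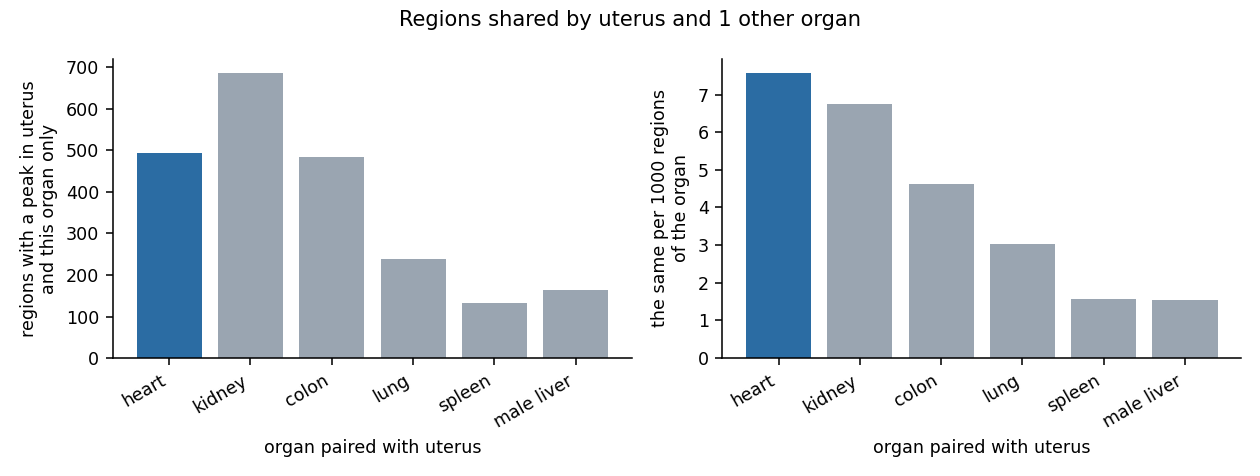
Regions with a peak in uterus and 1 other organ only, as a number (left) and per 1000 merged regions of that organ (right); each bar is 1 pair of libraries, with heart in blue. Kidney leads by number with 686 and heart per 1000 regions with 7.57, a rate that depends on the length of each peak list.

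A single further peak separated many regions from the set. With exactly 1 of colon, kidney, male liver and spleen added, there were 629 further regions without a lung peak and 544 with one. Colon was the added organ in 259 and 218 of these, kidney in 188 and 161, spleen in 107 and 105 and male liver in 75 and 60. The number of members also depended on how deep each peak list reached. With lists limited to peaks seen in 1% or more of their library's barcodes, the rule gave 1302 regions without a lung peak and 913 with one. Only 406 of the 493 and 113 of the 165 were among them. With every list held to the length of the uterus list, 37159 peaks, the numbers were 1563 and 784, and 215 of the 493 and 31 of the 165 remained. Of all peaks, 92.6% in heart and 93.6% in uterus were seen in 1% or more of barcodes, against 65.2% in colon, 56.9% in male liver, 41.6% in kidney and 32.0% in spleen.

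At most members, one peak lay within the other. The uterus peak lay inside the heart peak in 370 of 658 regions (56.2%), the heart peak lay inside the uterus peak in 162, and 126 overlapped otherwise or not directly. The centres of both peaks were 49.5 bp apart at the median, and 645 regions overlapped by at least 50% of the shorter peak. How often peaks lay within each other was not computed for other heart and uterus regions. Heart peaks were 477 bp wide at the median, against 546 bp over all heart regions and 358 bp over heart-only regions. Uterus peaks were 344 bp wide, against 605 bp over all uterus regions and 302 bp over uterus-only regions. The merged span had a median of 546 bp without and 707 bp with a lung peak and reached from 52 to 3130 bp. In 2 regions with a lung peak, heart and uterus peaks did not touch each other and were joined by the lung peak.

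The limit of the rule was met by very narrow peaks. The smallest direct overlap was 1 bp, at chr4:5117200-5117732 (without lung), chr18:32366064-32366851 and chr4:101715867-101715949 (both with lung). Just outside the limit, a heart and a uterus peak lay 65 bp apart at chr7:60236855-60237261 and 70 bp apart at chr1:112122834-112123154. No heart count was found in the kept cells at 4 members and no uterus count at 3, and the peaks at these members were 1 to 4 bp wide. A count of 0 allows a share of cells with a count of up to 0.0575% in heart and 0.052% in uterus, which at such widths does not limit the share of cells with accessible chromatin nearby. In all, 12 members had a heart peak and 17 a uterus peak under 20 bp, where a level per kb rests on very few counts.

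Accessibility at the members lay below the middle of the regions called in each library. The level is given in CPM, counts scaled to all counts in the peaks of the same cells, per kb of peak (CPM per kb), which compares regions of different width within a library. In heart, the median was 11.4 CPM per kb (interquartile range 9.96 to 13.3), against 12.1 over all heart regions and 18.5 over regions with a peak in all 7 organs. In uterus it was 21.1 (18.6 to 23.4), against 24.2 and 28.2. In lung, the 165 regions with a lung peak had a median of 7.96 (6.55 to 9.87), against 8.41 and 14.7. The median member stood at percentile 40.9 of all heart regions, at percentile 30 of all uterus regions and at percentile 43.5 of all lung regions. Levels of different libraries are not on one scale, because each is relative to the peaks of its own list.

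Near-member regions with 1 further organ had similar medians of CPM per kb. The 629 without a lung peak had medians of 11.8 CPM per kb in heart and 21.5 in uterus, and the 544 with a lung peak 11.7, 21.5 and 7.80. Their peaks were wider and were detected in more cells. Without a lung peak, the median width was 542 bp in heart and 409 bp in uterus, against 459 and 339 bp for members. The median share of cells was 3.51% and 4.02%, against 3.03% and 3.47%. Members with and without a lung peak hardly differed in CPM per kb in heart and uterus. Their medians were 11.3 and 11.4 CPM per kb in heart and 21.2 and 21.1 in uterus. The medians across regions are descriptions, since regions of 1 library are not replicates.

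Few cells had a count at any single member. In heart, the median member was detected in 3.06% of cells and the most widely detected in 17.9%. The median was 3.74% over all heart regions and 2.39% over heart-only regions. In uterus, the median was 3.47% and the highest share 15.3%, against medians of 5.86% over all uterus regions and 3.15% over uterus-only regions. In lung, the median was 1.67% and the highest 11.1%, against a median of 2.1% over all lung regions. A share of at least 1% of cells was reached in both heart and uterus by 541 of 658 members (82.2%), a share of 5% by 29 and a share of 10% by 1. Taken singly, 598 members reached 1% in heart and 592 in uterus, against 60551 of 65120 heart regions and 32273 of 34272 uterus regions. When each cell was thinned to 500 fragments, the median shares without a lung peak were 0.3% in heart and 0.460% in uterus. At full depth, with medians of 3824 and 3584 fragments per kept cell, the same regions had 3.03% and 3.47%. Summed over all members, these regions held 4807 CPM in heart and 5632 in uterus.

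The levels in heart and uterus were only weakly related. Over the 658 members, Spearman's rho between heart and uterus was 0.13 for CPM per kb, 0.041 for the share of cells and 0.044 for peak width. Over the 165 with a lung peak, rho of CPM per kb was 0.15 between heart and lung and 0.25 between uterus and lung. These are descriptions across regions of 2 libraries, and the peak calling that limits both axes from below is common to all points.

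**Figure D2:**
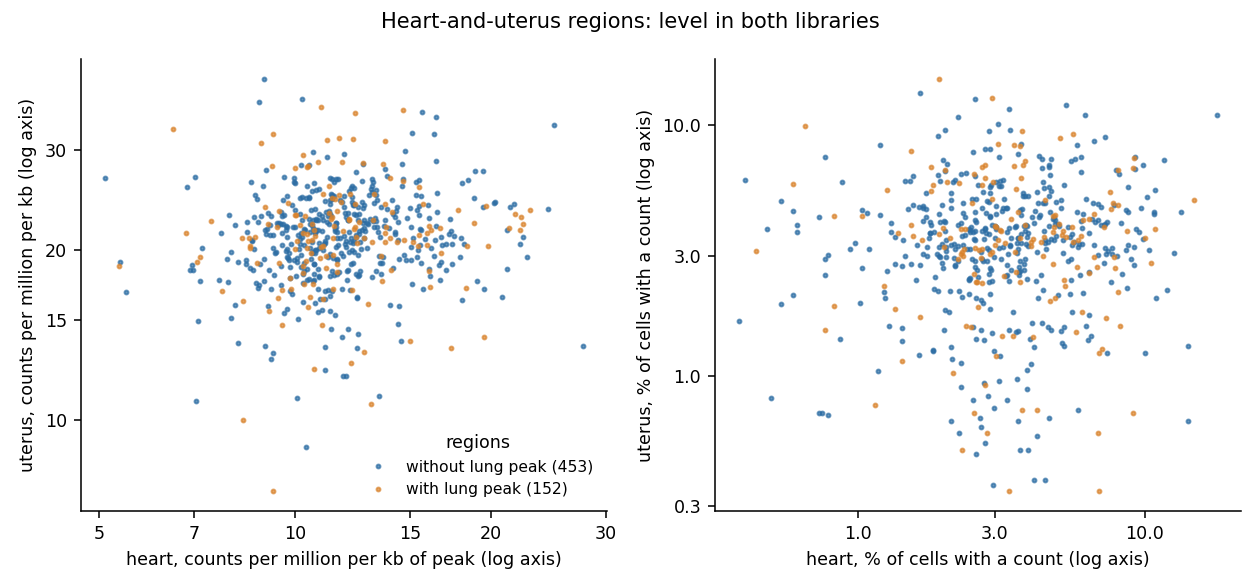
Each point is 1 of the 605 regions with at least 20 counts in both libraries (453 without and 152 with a lung peak), by CPM per kb of peak (left) and by the share of cells with a count (right), heart on the x and uterus on the y axis, all axes logarithmic. Both classes form 1 cloud with no visible slope, the rho over all 658 regions being 0.13 on the left and 0.041 on the right.

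Among regions without a lung peak, the 8 with the highest level in the lower of both organs are named. Since the heart value was the lower one at 623 of 658 members (94.7%), this order follows mainly the level in heart. At the head stood chr8:30216216-30217023, with 25.01 CPM per kb in heart (95% Poisson interval 22.9 to 27.2) and 33.2 in uterus (29.9 to 36.8). It had a count in 9.27% of heart cells and 6.71% of uterus cells. Next was chr4:49654861-49655895, with 24.5 in heart (22.7 to 26.4) and 23.6 in uterus (20.5 to 27.1). The intervals of both regions overlapped in heart and were apart in uterus. The third, chr10:85585613-85586334, had 21.7 in heart (19.7 to 23.9) and 24.1 in uterus (20.8 to 27.8).

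The remaining 5 of these regions were close to one another. They were chr11:78796278-78797023, chr3:8200638-8201879, chr12:56425831-56426785, chr18:59381512-59382758 and chr7:45262554-45263918. Their levels ranged from 20.3 to 22.4 CPM per kb in heart and from 20.5 to 24.3 in uterus, with overlapping intervals in each organ. Being chosen as the highest, all 8 are near the top of the set by construction. All intervals cover counting error only, were computed on counts divided by 2 because most fragments leave both ends in the same peak, and say nothing of the spread between animals.

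Among regions with a lung peak, the first by the same rule was chr14:53404918-53406493. Its level was 22.9 CPM per kb in heart (21.5 to 24.5), 23.6 in uterus (20.6 to 26.8) and 11.7 in lung (10.6 to 12.9). It was detected in 14.9% of heart, 5.03% of uterus and 3.54% of lung cells. The highest lung level among the 8 was at chr4:16075076-16076033, with 15.8 in lung (14.6 to 16.9), 19.8 in heart (18.0 to 21.7) and 20.3 in uterus (16.6 to 24.7). The other 6 were chr1:80987246-80988464, chr2:91425231-91426088, chr4:153084857-153085531, chr10:63362708-63363517, chr10:82105210-82105904 and chr14:104960504-104961366. They had 19.7 to 22.4 CPM per kb in heart, 21.7 to 23.9 in uterus and 7.53 to 12.0 in lung.

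Wider peaks tended to have higher levels. Spearman's rho between peak width and CPM per kb was 0.65 in heart, 0.41 in uterus (658 members each) and 0.68 in lung (165), as a description across regions of 1 library, and narrow peaks rest on few counts. The widest members were nevertheless not the highest. The widest member without a lung peak, chr5:170142202-170145331, spanned 3130 bp with 13.5 CPM per kb in heart (12.7 to 14.3) and 21.1 in uterus (18.4 to 24.0). The heart peak covered all 3130 bp and the uterus peak 506 bp. At chr4:36001329-36004291, of 2963 bp, the heart level was 16.8 (15.9 to 17.8) and the uterus level 20.4 (18.9 to 21.9), and 17.9% of heart cells and 10.99% of uterus cells had a count. It was the 1 member that reached 10% of cells in both organs. The third in width, chr15:19003569-19006407, had 9.95 in heart and 19.2 in uterus, both under the medians. Of the widest with a lung peak, chr15:43105088-43107853 was detected in 11.1% of lung cells but in 1.28% of uterus cells, where its peak was 117 bp wide. The other 2, chr16:18841016-18843206 and chr9:119529103-119531185, had 10.6 and 11.5 CPM per kb in heart, 17.4 and 22.0 in uterus and 6.60 and 6.59 in lung.

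The female liver gave the only peak list outside the rule. Of the 658 members, 157 (23.9%, exact binomial interval 20.7 to 27.3) had a peak there. Over all merged regions without a male liver peak the share was 24.0%, so the share of the members was at the background when every listed peak was taken. It was 22.5% (18.9 to 26.5) without and 27.9% (21.2 to 35.4) with a lung peak, with overlapping intervals. Regions of heart only had a share of 13.0%, of heart and lung only 28.6%, of uterus only 5.58%, of kidney and uterus only 7.87%, and of colon and uterus only 13.3%. Where a heart and a uterus peak came with a peak in colon, kidney or spleen and none in male liver, the share was 52.0% (50.1 to 53.9). Those regions were also wider, at a median of 959 bp against 600.5 bp for the members.

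The female liver counts behind these peaks were few. The library held 2627231 counts over 2110 barcodes, with a peak list of 165942. Only 92 of the 157 members with a peak had a count in any deposited barcode, 476 counts in all. Taking only peaks with a count, the share was 14.0% of members (11.4 to 16.9) and 20.9% of all regions without a male liver peak. With this filter the members thus lay below the background. The filtered share was not computed for like sets such as heart-only regions, so the lower share is not shown to be particular to the members. Members with a female liver peak had a median of 12.1 CPM per kb in heart and 21.2 in uterus, and members without one 11.2 and 21.1.

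The members were spread unevenly over the chromosomes. Chromosome X held 1 of 658, chrX:12103707-12104231, which is 0.152% (exact binomial interval 0.00385 to 0.844). Over all regions with a heart and a uterus peak the share was 2.13% (1.96 to 2.31), and over those that were neither members nor in all 7 organs it was 1.45% (1.15 to 1.80). Regions of kidney and uterus only, where a lung peak was not allowed, had 0.729% on X (0.237 to 1.69). Those of colon and uterus only had 1.45% (0.585 to 2.96). Regions of heart and lung only had 2.69% (1.96 to 3.59), of heart only 1.36% (1.16 to 1.58) and of uterus only 1.01% (0.642 to 1.51). The interval of the members overlapped those of uterus only and of both pairs with the uterus. It lay below those of heart only and of heart and lung only. The organs that had to lack a peak were partly those of the male, and the part of sex in this share was not tested.

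On chromosome 17 lay 32 members, 4.86% (3.35 to 6.80), against 2.77% of all merged regions, 2.59% of the other heart and uterus regions outside all 7 organs and 3.20% of heart-only regions, whose interval (2.89 to 3.52) overlapped that of the members. On chromosome 19 lay 11, 1.67% (0.837 to 2.97), against 2.68%, 3.48% and 1.22%. The share over all merged regions lay inside the interval of the members. Chromosomes X, 17 and 19 were picked after the values of all were seen, and others departed as well. Chromosome 12 held 41 members, 6.23% against 4.33% of all merged regions, and chromosome 3 held 24, 3.65% against 6.37%. No interval was computed for chromosomes 12 and 3. Members lay a median of 31422 bp from the nearest region with a peak in all 7 organs, and 3.80% lay within 1 kb of one. For all regions outside that class, the values were 36560 bp and 3.23%. No member fell into the genome windows drawn in the study around EGFL7, a gene of endothelial cells, or JCHAIN, the joining chain of secreted antibodies.

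The nearest other member was 628706 bp away at the median. Another member lay within 10 kb of 44 (6.69%) and within 100 kb of 157 (23.9%). The 686 regions of kidney and uterus only, a set of similar size, had a median of 907585 bp, with 5.1% and 19.7% within these distances. The 100 kb window with the most members, on chromosome 10, held 5 within chr10:82084081-82105904, of which 4 had no lung peak. Their highest clusters were the same in part only. At chr10:82094561-82095679, the level in heart was highest in cluster 3, with 44.6 CPM (37.6 to 52.6) against 4.63 in the other cells, and in uterus in cluster 7, with 24.9 (17.6 to 34.1) against 8.15. At chr10:82084081-82084695, the highest was heart cluster 2, with 25.5 (20.1 to 31.9) against 3.77, while the uterus library had only 32 counts. At chr10:82101586-82102887, 8.34% of uterus cells and 1.19% of heart cells had a count. These shares depend on the peak width in each library and do not compare the organs. Uterus cluster 5 was highest with 56.4 (47.1 to 66.9) against 19.6. The member with a lung peak, chr10:82105210-82105904, was highest in heart cluster 2 and uterus cluster 5. The narrowest, chr10:82085452-82085538, had 10 counts in heart. Next came 4 members without a lung peak within chr1:22189536-22265799, at 10.3 to 11.1 CPM per kb in heart and 12.3 to 19.3 in uterus.

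Cells were grouped without the members, so that the members could be compared between groups. In each library, likely doublets were removed and the remaining cells were clustered on 20199 regions with a peak in all 7 organs, leaving out the EGFL7 and JCHAIN windows. This gave 10 clusters of 4948 heart cells, 12 of 5438 uterus cells and 12 of lung cells, where 110 of 11397 cells fell into smaller groups that were left out. Clusters are called by number and by no cell type, because the lists of marker genes could not be placed on the peaks and a single window, that of EGFL7, names no type. Cells of 1 library are not replicates, and choosing the highest cluster makes its ratio to the rest exceed 1, so all clusters are given.

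In heart, the members without a lung peak were highest in cluster 3, a cluster of 816 cells, with 5658 CPM (5575 to 5741). The other cells together had 3192. Clusters 5, 6, 8 and 9 lay between 3503 and 3778 and clusters 1, 2 and 4 between 2510.3 and 3280.0. Clusters 10 and 7 were lowest, with 328 (266 to 401) and 671 (602 to 744). Heart-only regions were low in these last 2 clusters as well, with 7145 and 9964 CPM against 35014 or more elsewhere, and 89.6% and 83.9% of their counts fell into regions with a peak in all 7 organs.

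The uterus had a broader group of clusters with high levels. Members without a lung peak reached 6781 (6659.8 to 6904) in cluster 8, 6758 (6557 to 6964) in cluster 10, 6328 (6203 to 6454) in cluster 7, 5759.6 in cluster 1 and 5730.0 in cluster 5. The intervals of clusters 8 and 10 overlapped and that of cluster 7 lay below both. Cluster 4 had 4594, clusters 2, 3, 6, 9 and 12 had 2207 to 2925, and cluster 11 was lowest with 647 (576 to 725). The order depended on the scaling. As a percent of counts outside regions of all 7 organs, clusters 8 (4.46%) and 7 (4.33%) were highest, cluster 10 (3.69%) came after clusters 5 (3.86%) and 1 (3.83%), and cluster 11 (1.49%) was above clusters 12, 2 and 3 (1.32%, 1.2% and 1.16%). In heart, cluster 3 was highest (1.91%) and cluster 10 lowest (0.315%) on that scale too, with cluster 9 next to the highest (1.51%).

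Clusters with the highest counts in the EGFL7 window were not those with the most counts at members without a lung peak. In heart, the window had 1475 CPM in cluster 4 and 157 in cluster 3. Members without a lung peak had 2510.3 in cluster 4 and 5658 in cluster 3. In uterus, the window had 775 in cluster 9 and 632 in cluster 6, against 47.7 to 211 in the other clusters, and members without a lung peak had 2769 and 2207 there. In CPM, the regions with a lung peak were more evenly spread. Leaving out the 2 lowest clusters of heart, they lay between 955 and 1533 CPM, with clusters 1 (1533), 2 (1521), 3 (1428) and 4 (1426) highest. Clusters 1, 2 and 4 of these also had the most counts in the EGFL7 window (795, 684 and 1475). In uterus, leaving out cluster 11, the range was 1187 to 2120.2, with cluster 10 highest. This order too depended on the scaling, since as a percent of counts outside regions of all 7 organs uterus cluster 6 was highest (1.49%), before clusters 9 (1.27%) and 8 (1.24%), and cluster 10 had 1.16%. In heart, clusters 4, 2 and 1 had 0.541%, 0.532% and 0.53% on that scale. Leaving out the 2 lowest heart clusters, the range there was 0.268% to 0.541% with a lung peak and 0.953% to 1.91% without. On that scale, regions with a lung peak were thus not more evenly spread in heart. In lung they ranged from 1296 (1273 to 1320.3) in cluster 1 and 1252 in cluster 9, through 1111 in cluster 3, to 101 (73.3 to 135) in cluster 12. On the other scale, lung clusters 9 (0.486%), 3 (0.47%), 4 (0.447%) and 8 (0.427%) came before cluster 1 (0.335%).

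**Figure D3:**
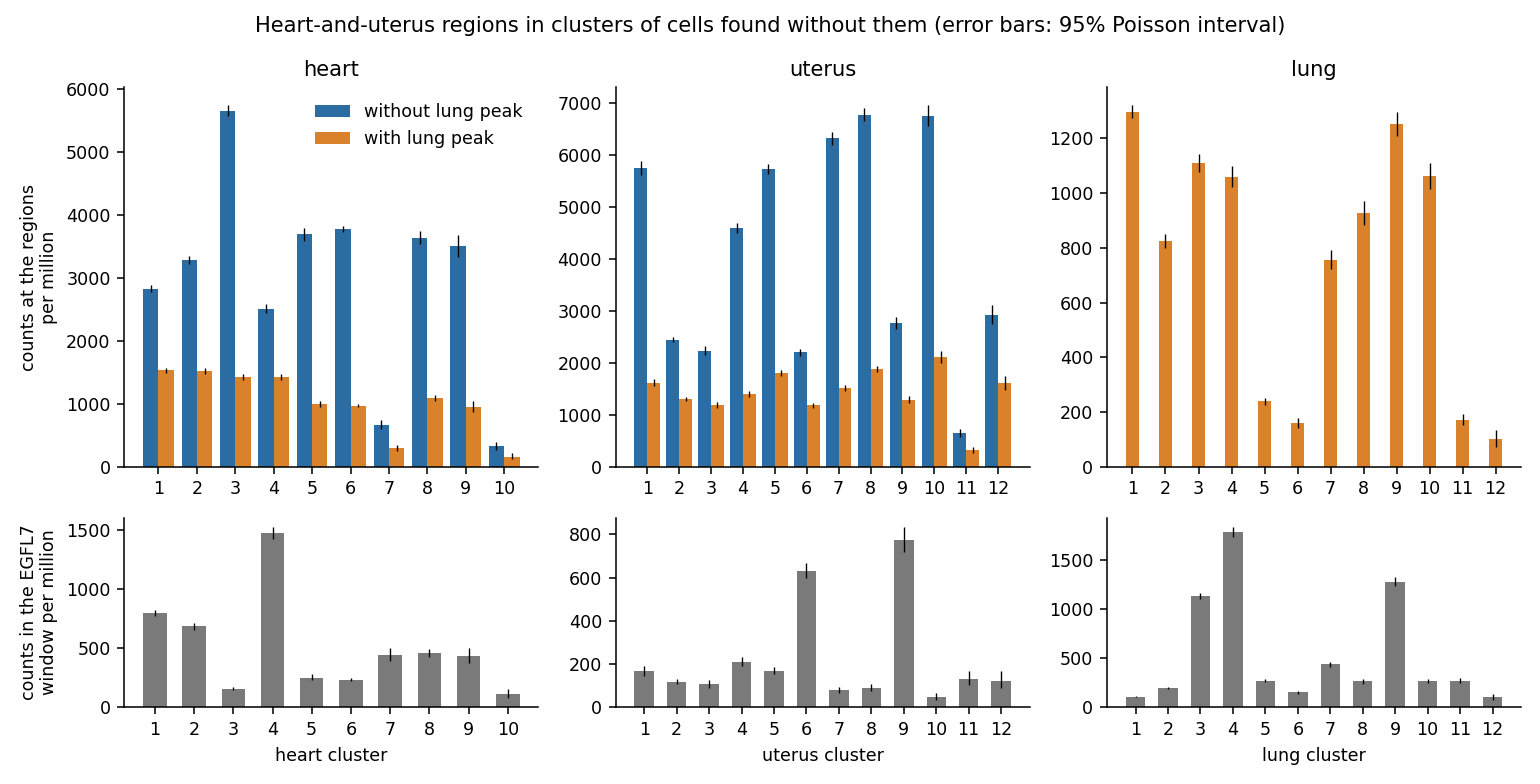
CPM at the heart-and-uterus regions for every cluster of heart, uterus and lung (upper row; blue without and orange with a lung peak) and counts in the EGFL7 window (lower row), with 95% Poisson intervals as error bars. Heart cluster 3 (5658) and uterus clusters 8 and 10 (6781 and 6758) stand highest for regions without a lung peak, whereas heart cluster 4 and uterus clusters 6 and 9 lead in the EGFL7 window.

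Single members followed the sums only in part. A region with 200 counts in a library has few in each small cluster, so its highest cluster carries counting error. How much of the spread over clusters this makes up was not tested. Of the 298 members without a lung peak that had at least 200 counts in the clustered heart cells, 95 (31.9%) were highest in cluster 3. Among the other heart regions outside all 7 organs with as many counts, 13.7% were. Cluster 4 was highest for 5 members (1.68%, against 4.12%) and cluster 6 for 38 (12.8%, against 17.9%). The share in cluster 3 was not particular to the members, since it was 32.6% of 414 regions without a lung peak that had 1 further organ, and 23.8% of all other heart and uterus regions outside all 7 organs. With a lung peak, 22 of 106 members (20.8%) were highest in cluster 3 and 27 (25.5%) in cluster 1, against 13.7% and 16.4% of the other heart regions.

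In uterus, 323 members without a lung peak had at least 200 counts. Of these, 68 (21.1%) were highest in cluster 7, against 8.71% of the other uterus regions outside all 7 organs. Cluster 10 was highest for 66 (20.4%, against 15.1%) and cluster 8 for 63 (19.5%, against 8.97%). Clusters 2, 3 and 12 were highest for 11, 14 and 36 of 323, that is 3.41%, 4.33% and 11.1%, against 13.2%, 12.4% and 24.4% of the other regions. Cluster 12 held only 143 cells (2.63%), so the counting error of single regions is largest there. Of the 470 regions with 1 further organ, 21.7% were highest in cluster 7, 19.8% in cluster 10 and 11.5% in cluster 8. Clusters 2, 3 and 12 took 6.6%, 3.19% and 17.2% of them. Among other heart and uterus regions outside all 7 organs, the shares in the same order were 13.6%, 18.4% and 9.89%, and 8.08%, 6.73% and 17.3%. Of the uterus-only regions, 15.5% were highest in cluster 8. In lung, 38 of 109 members with a lung peak (34.9%) were highest in cluster 1, 19 (17.4%) in cluster 9 and 18 (16.5%) in cluster 3, against 20.9%, 8.53% and 6.21% of other lung regions. In the same order of clusters, the shares were 43.5%, 5.83% and 3.13% of 7730 lung-only regions and 14.2%, 12.7% and 12.5% of 2906 other heart and uterus regions outside all 7 organs.

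**Figure D4:**
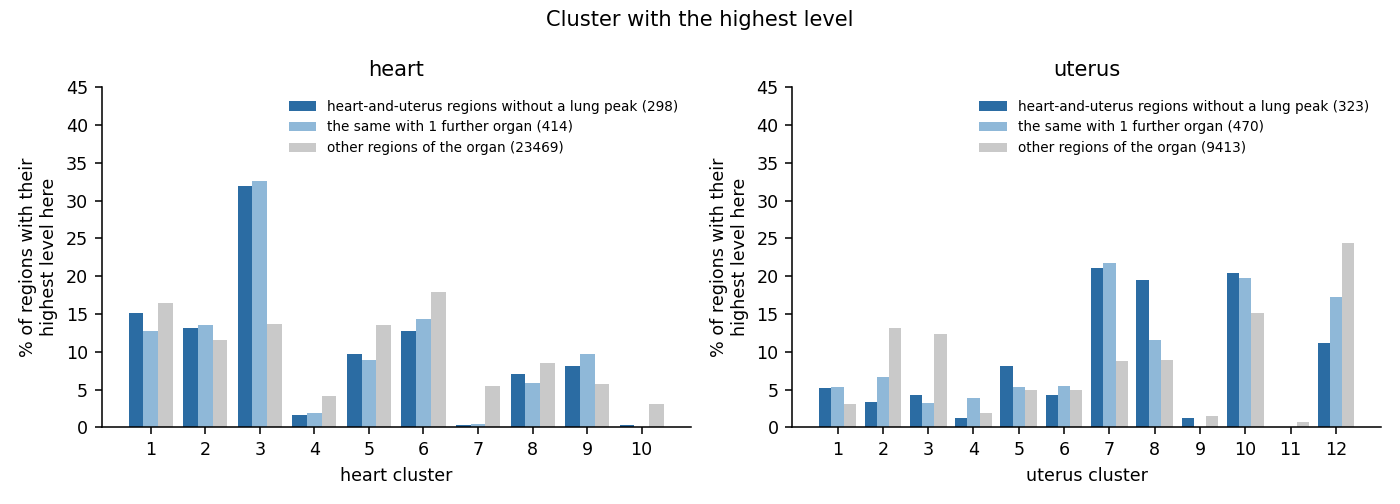
Percent of regions whose highest level lies in each cluster of heart (left) and uterus (right), for regions with at least 200 counts: heart-and-uterus regions without a lung peak, regions that in addition have a peak in 1 of colon, kidney, male liver or spleen, and all other regions of the organ outside all 7 organs. Heart cluster 3 takes 31.9%, 32.6% and 13.7% of them and uterus cluster 7 takes 21.1%, 21.7% and 8.71%. Single regions have few counts in small clusters, so the bars include counting error.

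Clusters of heart and uterus could be paired by the regions that all organs share. Over 4283 regions with a peak in all 7 organs and at least 2000 counts in both libraries, each cluster was described by the log2 ratio of its level to that of the other cells. Cluster pairs that were each other's best match were heart 10 and uterus 11 (Spearman's rho 0.62), heart 4 and uterus 9 (0.61), heart 8 and uterus 5 (0.55), heart 1 and uterus 6 (0.48), heart 3 and uterus 7 (0.46) and heart 5 and uterus 1 (0.42). The pair of heart 4 and uterus 9 joins the clusters with the highest EGFL7 window counts of each organ. Uterus clusters 8 and 10, with the highest CPM at members without a lung peak, had no such partner. Their levels were close, 6781 and 6758 CPM, but their median counts per cell were 8693 and 2706. Heart clusters 5 and 6 likewise had 3692 and 3778 CPM at median counts of 5042 and 25476. Whether depth split like cells into separate clusters was not tested.

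The members themselves, which the pairing did not use, followed it in part. Among the 261 members with at least 200 counts in each organ, the ratio in heart cluster 1 and that in uterus cluster 6 had a rho of 0.77. For heart 3 and uterus 7 it was 0.68 and for heart 4 and uterus 9 it was 0.47, below the 0.72 of heart 4 and uterus 6, which were not each other's best match. It was 0.33 for heart 8 and uterus 5 and 0.31 for heart 5 and uterus 1. For heart 10 and uterus 11, the clusters with the lowest CPM at members in each organ, it was -0.018. Their 108 and 151 cells had a count at a median of 1 and 2 member peaks. With so few counts, this rho cannot tell whether members followed the pairing. Over the 114 pairs of clusters that were not each other's best match, the median rho was 0.0076, with a range from -0.48 to 0.72. Other heart and uterus regions outside all 7 organs, 3233 with enough counts, had 0.73, 0.70 and 0.49 in the first 3 pairs, close to the members, and 0.21, 0.094 and 0.26 in the last 3. All points come from the same 2 libraries and clusters, and the values are descriptions.

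In the pair of heart cluster 3 and uterus cluster 7, 76 of 195 members without a lung peak were at least 2-fold above the other heart cells. Of these 76, 47 (61.8%) were also at least 2-fold above in uterus cluster 7, compared with 35.9% of all 195. With a lung peak, the same held for 6 of 18 members (33.3%, compared with 21.2% of all 66). In the pair of heart 1 and uterus 6, of 22 members with a lung peak that were at least 2-fold above in heart cluster 1, 13 (59.1%) were so in uterus cluster 6, compared with 25.8% of all 66, and without a lung peak 11 of 40 (27.5%, compared with 8.21% of all 195). In the other 4 pairs, the share of 2-fold members of heart that were also 2-fold in uterus was 0 to 50% and the share of all members that were 2-fold in uterus 0 to 33.8%. With a lung peak, heart 8 and uterus 5 went the other way, with 1 of 6 members (16.7%) compared with 22.7% of all 66. The members without a lung peak had median log2 ratios of 0.24 in heart cluster 3 and 0.59 in uterus cluster 7, and of -1.80 in heart cluster 1 and -1.70 in uterus cluster 6. Each share of all members includes the members counted in both organs. The same shares were not computed for other heart and uterus regions, so they are not shown to be particular to the members. Those regions had a rho of 0.70 for heart 3 and uterus 7 and 0.73 for heart 1 and uterus 6, against 0.68 and 0.77 for the members.

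**Figure D5:**
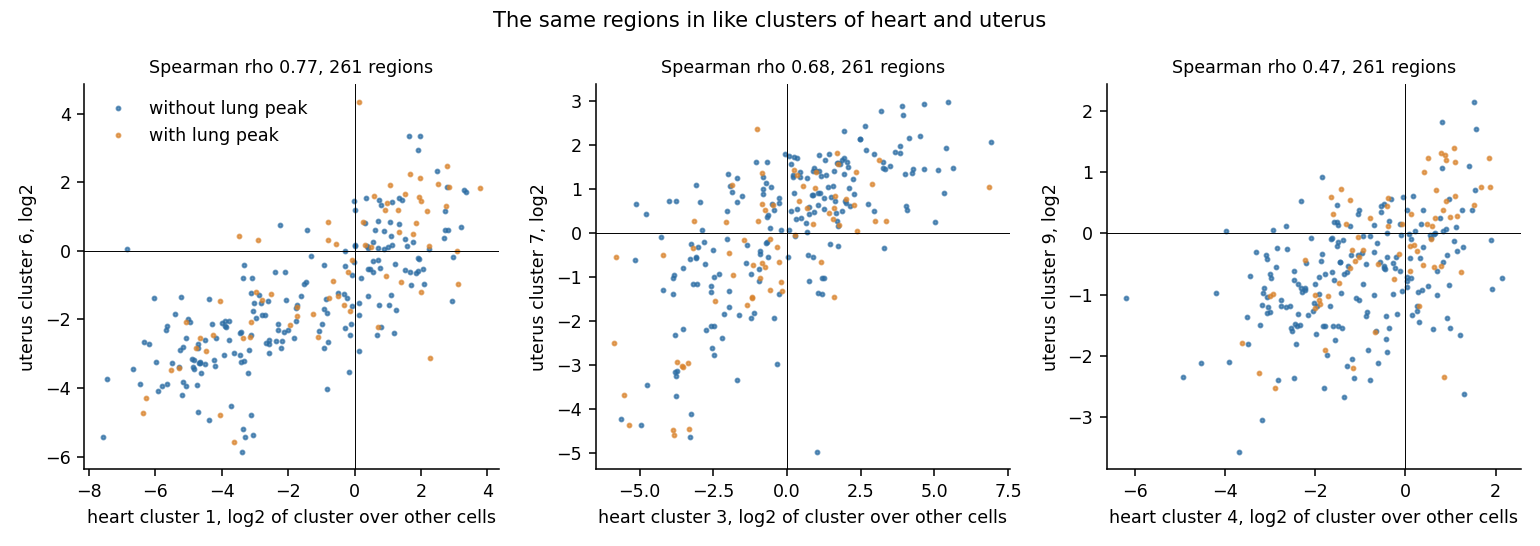
Each point is 1 of 261 regions with at least 200 counts in heart and in uterus; the axes give the log2 ratio of the level in a cluster to that in the other cells, heart on the x and uterus on the y axis, for the 3 best-correlated pairs of like clusters (blue without and orange with a lung peak). The regions rise together in each pair, with a rho of 0.77, 0.68 and 0.47.

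The members with a lung peak were compared with lung in the same way. Over the 72 members with enough counts, rho between like clusters of heart and lung was 0.67 for heart 4 and lung 4, 0.57 for heart 1 and lung 3 and 0.53 for heart 5 and lung 1, and between 0.044 and 0.36 for the other 4 pairs. The 560 regions of heart and lung only had 0.71, 0.73 and 0.61 in the first 3. Clusters of heart and lung that were not each other's best match reached from -0.64 to 0.66, the highest being heart 4 and lung 3. Some heart clusters had a higher rho with another lung cluster than with their best match. It was 0.60 for heart 1 and lung 9, 0.60 for heart 5 and lung 10 and 0.48 for heart 8 and lung 10. The best match of heart 8, lung 7, had 0.32. Between uterus and lung, over 69 members, rho was 0.65 for uterus 4 and lung 8, 0.50 for uterus 6 and lung 3 and 0.44 for uterus 9 and lung 4, and 0.33 and 0.016 for the other 2 pairs, while clusters that were not each other's best match reached 0.50. The values of 0.044 and 0.016 belong to lung 6 with heart 10 and with uterus 11, where counts at members were too few to show a shared pattern. Some matches with lung were close. Over regions of all 7 organs, rho was 0.49 for heart 8 and lung 7 against 0.47 for the next best. For uterus 4 and lung 8 it was 0.61 against 0.56. Lung cluster 4 had the most EGFL7 window counts in that organ, 1784 CPM.

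A few members were named for being uneven between cells in both organs. From the 33 members with at least 500 counts in heart and in uterus, the 4 with the largest lower ratio of their highest cluster to the other cells were chosen. Their ratios are a description of regions picked for it, with medians over the 33 of 2.77 in heart and 2.86 in uterus. At chr7:57070461-57072302, heart cluster 2 had 89.7 CPM (79.3 to 101.1) against 15.6 in the other cells, a ratio of 5.74, and uterus cluster 12 had 53.5 (31.9 to 84.0) against 11.9, a ratio of 4.49. At chr10:63362708-63363517, heart cluster 1 had 48.6 (42.3 to 55.5) against 8.53, and uterus cluster 6 had 35.1 (27.6 to 44.0) against 9.06. That region has a lung peak, and lung cluster 3 had 34.0 (28.4 to 40.2) against 4.64, so that it was highest in 3 clusters that were each other's best match in every pair of organs.

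The same clusters led at chr4:16075076-16076033, named above for its level. Heart cluster 1 had 42.2 (36.3 to 48.7) against 10.6, uterus cluster 6 had 18.7 (13.4 to 25.5) against 2.78, and lung cluster 3 had 59.1 (51.8 to 67.2) against 9.40. At chr14:8022046-8022684, heart cluster 6 had 27.6 (23.5 to 32.2) against 4.50 and uterus cluster 5 had 47.1 (38.6 to 56.8) against 13.6. At chr2:100806652-100807368, heart cluster 4 had the highest level, 38.7 (30.8 to 48.1) against 10.2, although the log2 ratio to the other cells was larger in cluster 1 (2.24) than in cluster 4 (1.93), and uterus cluster 8 had 35.2 (27.0 to 45.2) against 10.1. In these last 2 regions and at chr7:57070461-57072302, the leading clusters of heart and uterus were not each other's best match.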

How the data were processed

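Nuclei of 7 organs were profiled by scATAC-seq. The authors processed each library with Cell Ranger ATAC 1.2.0, called peaks per library and deposited raw counts of cut ends, without normalization, for each peak in each barcode. The study names macFas6 and an Ensembl annotation for its RNA data; for these libraries the build and annotation are not given in the sources used here. Members, lists and named regions were chosen with earlier results of these data known. Named regions were the 8 highest per class by the lower of both levels, the 3 widest, those at the overlap limit, the fullest 100 kb window, regions in the EGFL7 and JCHAIN windows and the 4 most uneven between cells.

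Barcodes with at least 1000 counts were kept. Doublets were scored with 2 simulated doublets per cell among 50 neighbours on 10 components, and the highest scores were removed up to a number given by the square of the cell count over 100000, that is 5.21% of heart, 5.75% of uterus and 13.1% of lung cells. Cells were clustered on binarized regions (TF-IDF, 30 components, 20 neighbours, Leiden at resolution 0.8, leidenalg 0.10.2, python-igraph 0.11.9, scikit-learn 1.9.0, SciPy 1.17.1, numpy 2.4.6, pandas 2.3.3, Python 3.11.15), leaving out components correlated above 0.75 with depth. Clusters under 1% of a library's cells, which held 110 lung cells, were left out. Intervals at 95% are exact Poisson on counts divided by 2, or exact binomial. No test between organs was made, since each has 1 library. The lists of cell type markers could not be used without a matching annotation. Merging, thinning, doublet scoring and clustering were tested on simulated data. The alternatives were other overlap rules, peak filters, list lengths, liver libraries, barcode minimums, denominators, doublet treatment and cluster settings. Chosen after the data were seen were leaving out barcodes found in more than 1 of the 3 libraries, and the correlation and leading-cluster share under other clusterings.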

Additional observations from a re-analysis of the deposited data

How the results depend on the processing

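Each organ was 1 library, so the intervals cover counting error only, and neither the spread between animals nor a test between organs can be given. No paired analysis was possible because each pair of organs from the same animal gives a single pair of libraries and the results come from no test. A number of regions was called unmoved within 1.5 times its main value, the median rho within a fixed difference, and any other value within its interval. By these limits, 47 of 82 alternatives over 14 results left the value unmoved and 35 moved it. Some of these moves were small, such as the heart share of cells from 3.06% to 2.82%. The cause was not tested. The number of regions without and with a lung peak was 1302 and 913 with peaks in at least 1% of barcodes, and 1563 and 784 with equally long lists. It was 417 and 133 without liver replicate 2, the male liver, with the female one in its place. The female liver share was 14.0% with counted peaks only, against 20.9% of the background regions filtered alike. Median shares of cells in heart and uterus were 2.82% and 3.12% with no count minimum, 3.4% and 3.83% with at least 2000 counts, 2.78% and 3.19% without likely doublets (lung 1.48%), 3.31% and 3.67% over members in at least 1% of cells (lung 1.96%), and 0.303% and 0.460% after thinning (lung 0.226%). Median accessibility over members in at least 1% of cells was 11.6 in heart and 8.40 in lung. With only counts in regions of all 7 organs as the denominator it was 16.5 in heart, 24.9 in uterus and 11.6 in lung, and counted as cells it was 15.7, 32.1 and 10.6. The ratio of the highest cluster to the other cells, summed over all members, was 1.61 in heart, 1.62 in uterus and 1.76 in lung. With the denominator of all 7 organs it was 1.58, 1.69 and 2.05. Without doublet removal it was 1.58 in heart and 1.52 in lung, and in lung it was 1.70 at resolution 1.2 and 1.69 with 15 components. Among alternatives chosen after seeing the data, leaving out shared barcodes moved no median beyond its interval. The median rho over like clusters was 0.40, and 0.18 at resolution 0.4, 0.25 without doublet removal, 0.32 at resolution 1.2 and 0.33 with another seed. The highest rho was 0.77 or 0.78 in each of these settings, and 30.9% to 31.9% of members without a lung peak were highest in the leading heart cluster.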
